A study of Mus musculus with 2 samples.

Results

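Mural cells, the smooth muscle cells and pericytes that wrap blood vessels, were studied in 2 single-cell RNA sequencing (scRNA-Seq) libraries of the mouse temporomandibular joint (TMJ), the joint of the jaw. One library came from TMJs injected with PBS, the vehicle, and the other from TMJs injected with complete Freund's adjuvant (CFA), an emulsion that provokes inflammation and was used to induce TMJ osteoarthritis (TMJOA). The mice were female, WT and of the C57BL/6 strain, aged 8 to 10 weeks by the labels. By the methods, n was 3: mice aged 8 weeks received a 10 µL injection, of vehicle or of 5 mg/mL CFA, and tissue was taken 3 weeks after it, so the ages of both sources differ. The digest pooled the condyle and disc with ligament, muscle and temporal bone, so the vessels are those of the whole joint region, and cells carrying the immune surface protein CD45 were depleted. With 1 library per condition there is no replicate check. No test between PBS and CFA was made, and all intervals given are 95% intervals that cover counting error only.

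The cells were chosen by their unique molecular identifiers (UMIs), which count captured RNA molecules. A cell had at least 500 genes, at most 10% mitochondrial UMIs and at most 1% hemoglobin UMIs. It held at least 1 *Notch3* UMI, at least 5 UMIs of *Notch3*, *Myh11* and *Rgs5* together, no *Ptprc* UMI, fewer than 2 UMIs of the endothelial genes *Pecam1* and *Cdh5*, and fewer than 3 of the fibroblast genes *Dpt*, *Clec3b* and *Col14a1*. This gave 302 mural cells of 6681 kept cells, 132 of 2667 in PBS and 170 of 4014 in CFA. Just inside the limit, 3 PBS and 5 CFA cells had exactly 5 UMIs of the 3 genes, and just outside, 8 and 14 had 4. Since these counts chose the cells, the levels of these genes are given below as a description.

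Mural cells sit on the outer face of the endothelium. Arterial smooth muscle cells contract through smooth muscle myosin and actin and set the width of the vessel, whereas pericytes lie on capillaries, contract little and are marked by the potassium channel of *Kcnj8* and *Abcc9*. NOTCH3 is the Notch receptor of both, activated by JAG1 on neighbouring cells, and PDGF receptor beta, encoded by *Pdgfrb*, holds pericytes on the vessel. The genes that mark these cells lie, in the GRCm38 build, at chr17:32120820-32166852 for *Notch3* (minus strand), chr16:14194535-14291372 for *Myh11*, the smooth muscle myosin heavy chain (minus strand), chr1:169655501-169695813 for *Rgs5*, a regulator of G-protein signalling (plus strand), chr19:34241090-34255590 for *Acta2*, smooth muscle actin (minus strand), and chr2:156775420-156781658 for *Myl9*, a myosin light chain (plus strand).

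The 2 markers that the choice did not use were present in most of the cells. *Acta2* UMIs were found in 83.3% of the PBS (75.9% to 89.3%) and 85.9% of the CFA mural cells (79.7% to 90.7%), against 17.5% and 12.05% of the other kept cells. *Myl9* UMIs were found in 84.8% and 87.1%, against 21.9% and 7.28% of the other kept cells. The median mural cell held 7361 UMIs in PBS and 8603 in CFA. The libraries shared 10 barcode sequences, and none was a mural cell.

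Not every cell that met the rule looked mural. *Myh11* and *Rgs5* were both without a UMI in 9 PBS and 7 CFA cells, which entered through *Notch3* alone. The largest PBS cell held 129612 UMIs, among them 240 of the keratin *Krt14*, 1069 of *Scd1*, a fatty acid desaturase, and 3630 of *Fabp5*, with none of *Acta2*. A second, of 82000 UMIs, held 4803 UMIs of the cartilage collagen *Col2a1* and 2432 of *Ibsp*, a bone matrix protein, beside 106 of *Acta2*. Other cells held *Runx2*, *Lepr* and *Adipoq* UMIs or, mostly in CFA, *Pax7*, the factor of muscle satellite cells, and *Chodl*. In the rest of this text, the restricted mural cells are the 275 (118 PBS, 157 CFA) with at least 5 UMIs of *Myh11* and *Rgs5* together and fewer than 10 from each marker list of chondrocytes, osteoblasts and osteocytes, skeletal muscle and satellite cells, Schwann cells and tendon. This limit was set after the data had been seen. The 4 PBS cells over 30000 UMIs held 21.2% of the UMIs of all PBS mural cells, so values summed over the 302 cells lean on them, and the restricted value is given beside a CFA to PBS ratio where it was over 1.5 times apart or ended a call.

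**Figure D1:**
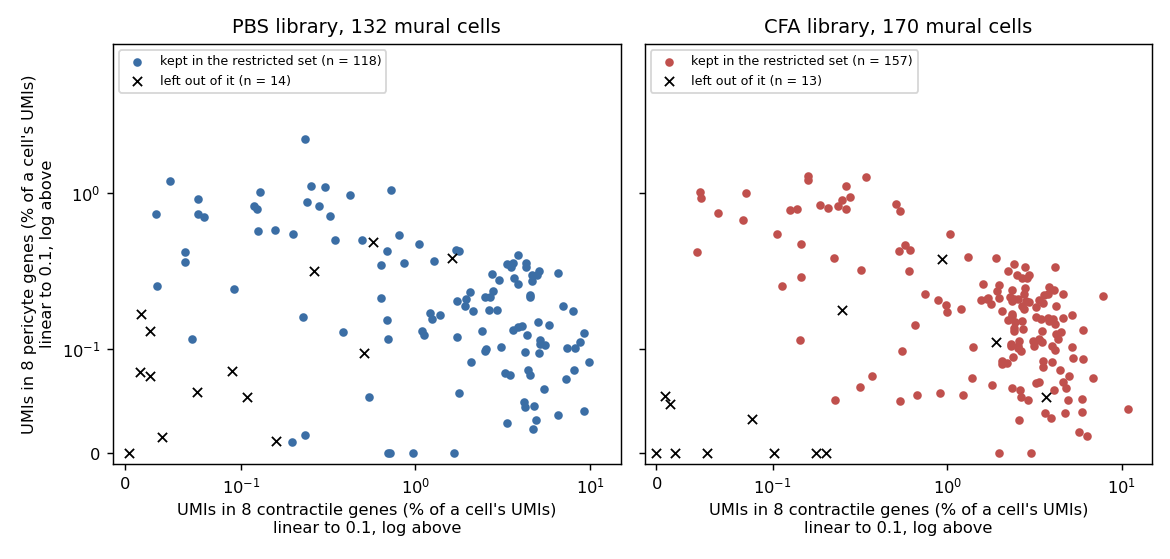
Each point is 1 mural cell of the PBS (left) or CFA library (right). The x axis is the share of its UMIs in 8 contractile genes (*Acta2*, *Tagln*, *Myh11*, *Myl9*, *Cnn1*, *Tpm2*, *Lmod1*, *Des*), the y axis that in 8 pericyte genes (*Kcnj8*, *Abcc9*, *Higd1b*, *Cspg4*, *Pdgfrb*, *Vtn*, *Cox4i2*, *Ndufa4l2*), both in percent and linear up to 0.1, log above, and crosses mark the 14 PBS and 13 CFA cells left out of the restricted set. In both libraries the cells run from high pericyte and low contractile shares to the reverse.

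Of the 30 genes that stood highest in mural cells against the other kept cells, 16 were on a list used here, 10 of them on the contractile and 3 on the pericyte list. They were ranked by the lower of both libraries' ratios, with 10 counts per 1000000 UMIs (CPM) added to each level. *Myh11*, which with *Notch3* took part in the choice of the cells, came first, at 3276 CPM in PBS mural cells against 115 in the other kept cells, and at 4075 against 54.2 in CFA. *Kcnab1*, a subunit of voltage-gated potassium channels, came next with 1098 against 32.9 CPM in PBS and 2132 against 39.5 in CFA. *Acta2*, *Tagln*, *Tpm2*, *Myl9*, *Synpo2*, *Lmod1* and *Cnn1*, all of the contractile apparatus, were also among these 30. So were the calcium handling genes *Pln* (phospholamban, the brake on the calcium pump of the sarcoplasmic reticulum), *Ryr2* (the calcium release channel), *Cacna1c* (the L-type calcium channel) and *Jph2*, which tethers the reticulum to the plasma membrane. *Gucy1a1*, a subunit of the guanylate cyclase that answers nitric oxide, stood at 443 against 25.4 CPM in PBS and 689 against 15.9 in CFA, and *Mrvi1*, which acts downstream of it, at 301 against 19.2 and 442.5 against 7.76. The olfactory receptor gene *Olfr558* was 1 of the 30, at 200 CPM against 7.62 in PBS and 357 against 4.96 in CFA. *Myocd*, the coactivator that drives smooth muscle genes, stood at 177 against 6.54 CPM in PBS and 370 against 7.15 in CFA. All 30 were also the first 30 in the restricted mural cells. Those are part of the same cells and had to hold *Myh11* or *Rgs5* UMIs, so this is no separate check.

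The balance of *Myh11* and *Rgs5* divided the cells. Cells with at least 5 *Myh11* and fewer than 5 *Rgs5* UMIs made up 42.4% of the PBS (33.9% to 51.3%) and 41.2% of the CFA mural cells (33.7% to 49.0%). Cells with at least 5 of both made up 27.3% (19.9% to 35.7%) in PBS and 40% (32.6% to 47.8%) in CFA. Cells with at least 5 *Rgs5* and fewer than 5 *Myh11* UMIs made up 21.97% (15.2% to 30.0%) in PBS and 12.4% (7.81% to 18.3%) in CFA. The intervals of the last 2 classes overlap between the libraries. *Kcnj8*, which took no part in the choice, had a UMI in 75.9% (PBS) and 66.7% (CFA) of the cells with *Rgs5* alone, and in 8.93% and 5.71% of those with *Myh11* alone. Its partner *Abcc9* was found in 93.1% and 85.7% of the cells with *Rgs5* alone, against 23.2% and 17.1%. The median depth was 4744 and 3396 UMIs in the cells with *Rgs5* alone and 10042 and 10242.5 in those with *Myh11* alone, so the higher shares were found at the lower depth.

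To follow other genes along this axis, the cells of each library were ordered by the share of their UMIs in the 8 contractile genes and split into 3 ranges of equal number. The low range ended at 0.633% in PBS and 1.23% in CFA, and the high range began at 3.52% and 3.01%. In the restricted set, the low range ended at 0.865% and 1.71%, and the high range began at 3.88% and 3.21%. PBS and CFA cells of 1 range are therefore not matched for contractile share. A range is a stretch of a score and not a cell type, and 7 PBS and 3 CFA cells lay within 10% of the limit between the low and middle ranges and 8 and 19 within 10% of that between the middle and high ranges. In the restricted set these were 2 and 6 cells and 10 and 15 cells. Of the 3646 genes with a mean of at least 50 CPM over the 3 ranges of both libraries, 379 (10.4%) were at least 2-fold higher in the low than in the high range in both libraries, and 246 (6.75%) were at least 2-fold lower. Among the restricted mural cells these were 482 (13.6%) and 268 (7.55%) of 3551 genes. The values that follow are levels in the restricted mural cells.

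Of the 14 measured pericyte genes that took no part in the choice of the cells, 7 were at least 2-fold higher in the low range in both libraries (5 of 14 among all 302 cells), and none was 2-fold lower, against 13.6% and 7.55% of all genes. *Abcc9* went from 1296 CPM in the low to 63.2 in the high range in PBS, a ratio of 20.5 (13.7 to 31.9), and from 952 to 50.5 in CFA. *Steap4*, a metalloreductase, went from 593 to 21.9 CPM in PBS and from 596 to 33.1 in CFA. *Pdgfrb* was 3.92-fold higher in the low range in PBS and 3.44-fold in CFA. *Vtn* (vitronectin) and *Higd1b* followed, whereas *Cspg4*, the proteoglycan NG2, stood at 239 CPM in the low and 248 in the high range of PBS and at 221 and 209 in CFA. *Notch3* stood at 887, 784 and 814 CPM in the low, middle and high ranges of PBS and at 1339, 1033 and 774 in CFA, and it took part in the choice of the cells. So did *Rgs5*, which stood at 5646, 2020 and 262 CPM in PBS and at 6559, 2473 and 381 in CFA. A cell low in *Myh11* needed *Rgs5* UMIs to enter the restricted set, so part of this gradient is set by the choice. Whether the choice also raised genes found together with *Rgs5* was not tested. The median low to high ratio of the 14 genes was 3.04 in PBS and 2.68 in CFA, against 1.51 and 2.31 among all 302 cells.

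Contractile genes that were not among the 8 that set the ranges followed them. Of 12 such genes, 9 were at least 2-fold higher in the high range in both libraries, against 7.55% of all genes. Among all 302 cells 10 of 12 were, against 6.75%. The medians of the low to high ratio in the restricted cells were 0.175 in PBS and 0.282 in CFA. *Flna*, the actin crosslinker filamin A, stood at 198 CPM in the low and 2633 in the high range of PBS and at 378 and 1947.5 in CFA. *Mylk*, the kinase that starts contraction by phosphorylating myosin light chain, stood at 574 and 3119 CPM in PBS and at 750 and 2656 in CFA. *Casq2*, which stores calcium in the reticulum, went the other way, at 299 and 209 CPM in PBS and at 266 and 137 in CFA.

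Ion channels split between both ends. The ATP-sensitive potassium channel genes *Kcnj8* (703 CPM in the low and 34.0 in the high range of PBS, 234 and 3.48 in CFA) and *Abcc9* lay at the low end, with the cation channel *Trpc6* at 349 and 75.3 CPM in PBS and 327 and 111 in CFA. The calcium-activated potassium channel *Kcnma1* lay at the other end, with 142 CPM in the low and 743 in the high range of PBS and 70.5 and 868 in CFA. *Ryr2* stood at 22.97 and 296 CPM in PBS and at 28.8 and 393 in CFA, and *Kcna5*, a voltage-gated potassium channel, at 22.97 and 148 and at 80.1 and 162. Of the 14 genes of this list, 4 were 2-fold higher and 5 were 2-fold lower in the low range in both libraries, against 13.6% and 7.55% of all genes.

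Of 7 measured receptors for vessel-acting signals, 1 (*Ednrb*) was 2-fold higher and 1 (*Ramp1*) 2-fold lower in the low range in both libraries, against 13.6% and 7.55% of all genes. *Ednrb*, endothelin receptor B, stood at 317 CPM in the low and 9.72 in the high range of PBS and at 772 and 38.3 in CFA. *Ednra*, endothelin receptor A, was less graded, at 345 and 168 CPM in PBS and 468 and 284 in CFA. *Ramp1*, which turns the calcitonin receptor-like receptor into the receptor of the neuropeptide CGRP, lay at the high end with 41.3 and 372 CPM in PBS and 54.5 and 228 in CFA. *Npy1r*, a receptor of neuropeptide Y, stood at 50.5 and 151 CPM in PBS and at 160 and 254 in CFA. *Adra1a*, an adrenergic receptor, stood at 165 and 151 CPM in PBS and at 119 and 131 in CFA.

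Matrix genes lay at both ends, within the basement membrane as within the fibrillar and elastic list. Of 10 basement membrane genes, 3 were 2-fold higher and 1 was 2-fold lower in the low range in both libraries, against 13.6% and 7.55% of all genes. The basement membrane collagen gene *Col4a1* stood at 2173 CPM in the low and 758 in the high range of PBS and at 1554 and 694 in CFA, and *Lama5*, a laminin chain, went the other way with 41.3 and 219 CPM in PBS and 80.1 and 214 in CFA. Of 17 fibrillar and elastic matrix genes, 8 were 2-fold higher and 2 were 2-fold lower in the low range in both libraries, against the same 13.6% and 7.55%. *Mgp*, an inhibitor of calcification, stood at 3827 and 199 CPM in PBS and at 3473.5 and 465 in CFA. *Eln*, the elastin of arterial walls, stood at 156 and 1389.6 CPM in PBS and at 70.5 and 587 in CFA. Of 16 measured cytokine, chemokine, adhesion and acute phase genes, 8 were 2-fold higher and 1 was 2-fold lower in the low range in both libraries. The shares of all genes were again 13.6% and 7.55%. On opposite sides of 1 in the libraries lay 2 of the 16. Of these, *Il34*, a ligand of the CSF1 receptor of macrophages, stood at 574 and 68.0 CPM in PBS and at 570 and 108 in CFA. From the separate list of trophic and angiogenic genes, *Ntf3*, the neurotrophin 3 gene, went the other way at 4.59 and 124 in PBS and 35.2 and 87.0 in CFA. The transcription factor *Ebf1* was 3.68-fold higher in the low range in PBS and 3.00-fold in CFA.

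**Figure D2:**
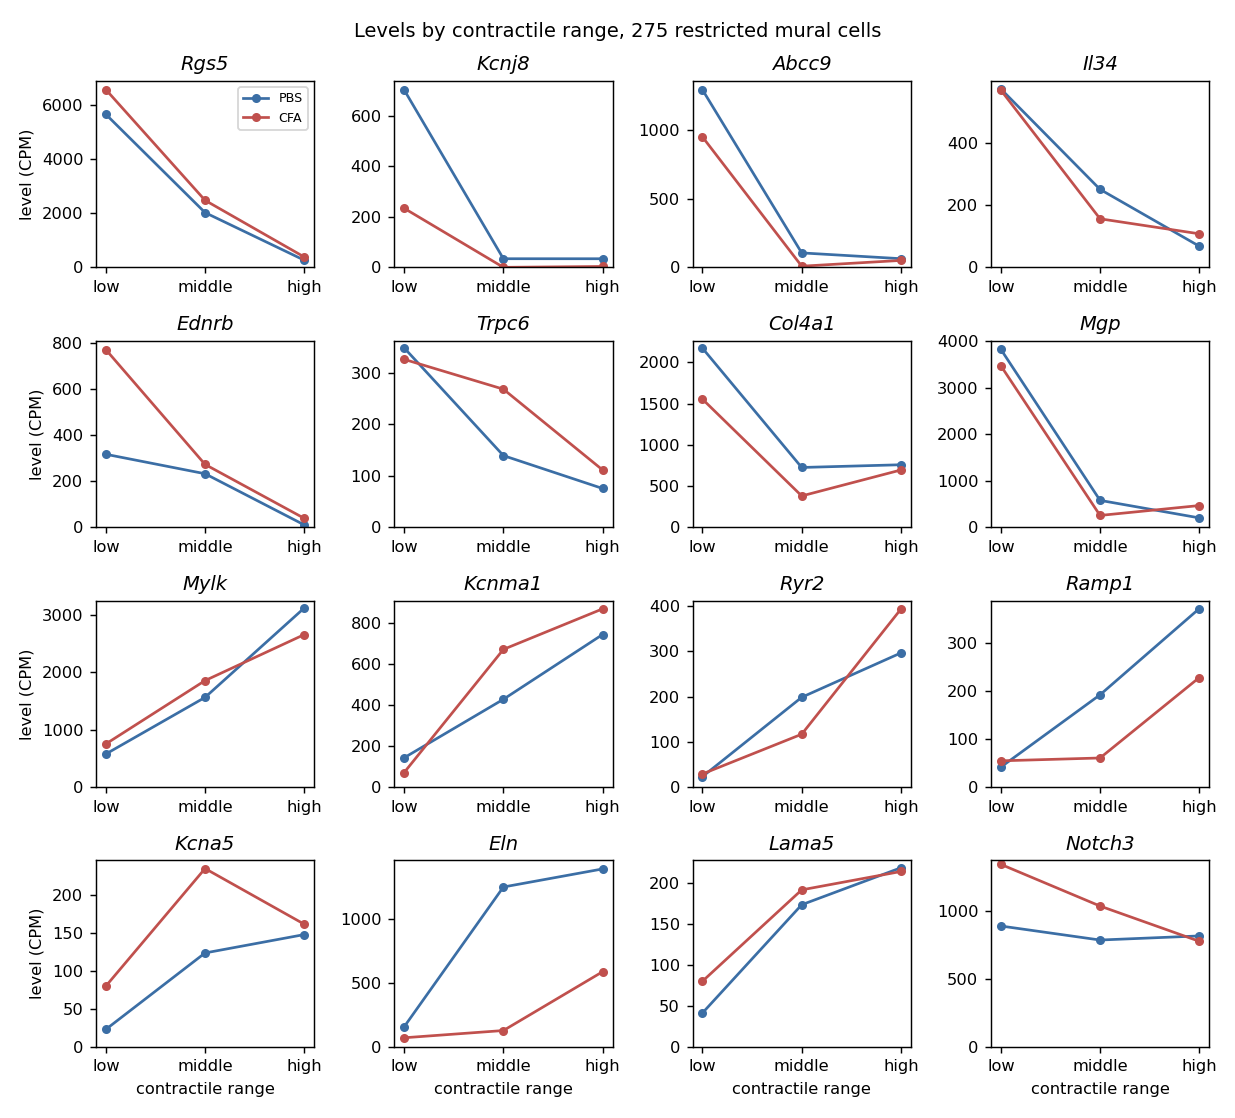
Levels in CPM (linear axes from 0) in the low, middle and high ranges of the contractile share, for the PBS (blue) and CFA (red) restricted mural cells, with 1 value per range and library summed over 39 to 53 cells. *Kcnj8*, *Abcc9*, *Il34*, *Ednrb*, *Trpc6*, *Col4a1* and *Mgp*, and *Rgs5*, which helped choose the cells, are highest in the low range in both libraries, *Mylk*, *Kcnma1*, *Ryr2*, *Ramp1*, *Eln* and *Lama5* highest in the high range, *Kcna5* in the middle or high range, and *Notch3* shows no such gradient in PBS.

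The promoter of 1 contractile gene that marks these cells is shown because it carries a CArG box, the element bound by serum response factor, which MYOCD coactivates. The window is the 250 bases before the RefSeq start of *Myl9* (GRCm38.p6, chr2:156775214-156775463, plus strand, printed 5′ to 3′), with the CArG box in capitals.

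Myl9: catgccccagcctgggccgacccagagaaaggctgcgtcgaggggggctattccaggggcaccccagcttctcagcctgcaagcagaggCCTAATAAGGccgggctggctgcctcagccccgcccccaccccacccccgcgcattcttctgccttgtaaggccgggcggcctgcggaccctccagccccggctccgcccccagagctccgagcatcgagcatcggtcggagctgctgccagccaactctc

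Of the 17 contractile genes with such a window it was the only one with a match on either strand (5.88%), against 439 of 27025 RefSeq genes (1.62%). No match says only that these letters are not in these 250 bases.

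Among the kept cells, mural cells were as common in the CFA library as in PBS within counting error. They made up 4.95% of the kept PBS cells (4.16% to 5.84%) and 4.24% of the kept CFA cells (3.63% to 4.90%), a ratio of 0.856 (0.685 to 1.07). A further 40 PBS but only 4 CFA barcodes met every other part of the rule with over 1% hemoglobin UMIs. With no limit on hemoglobin the shares were 2.94% and 4.00%, a ratio of 1.36, and over all deposited barcodes the ratio was 1.73. The direction of this ratio is therefore set by the barcodes that are counted. Immune depletion and digestion set these shares too, and their part in the result was not tested. Levels were then compared as CPM summed over the mural cells of each library. Of 3642 genes with a mean of at least 50 CPM, 94 (2.58%) were at least 2-fold higher in CFA and 195 (5.35%) at least 2-fold lower. In the restricted mural cells, 53 (1.52%) and 75 (2.15%) of 3487 genes were past these folds. Of the 94, 37 reached the limit of 50 CPM only through CFA, and of the 195, 102 only through PBS. In the restricted cells these were 32 of the 53 and 31 of the 75. Among genes at the limit in both libraries, 57 and 93 of 3176 were past these folds. In the restricted cells 21 and 44 of 3149 were. The median ratio of all measured genes was 1.05 in the 302 cells and 1.01 in the restricted ones.

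**Figure D3:**
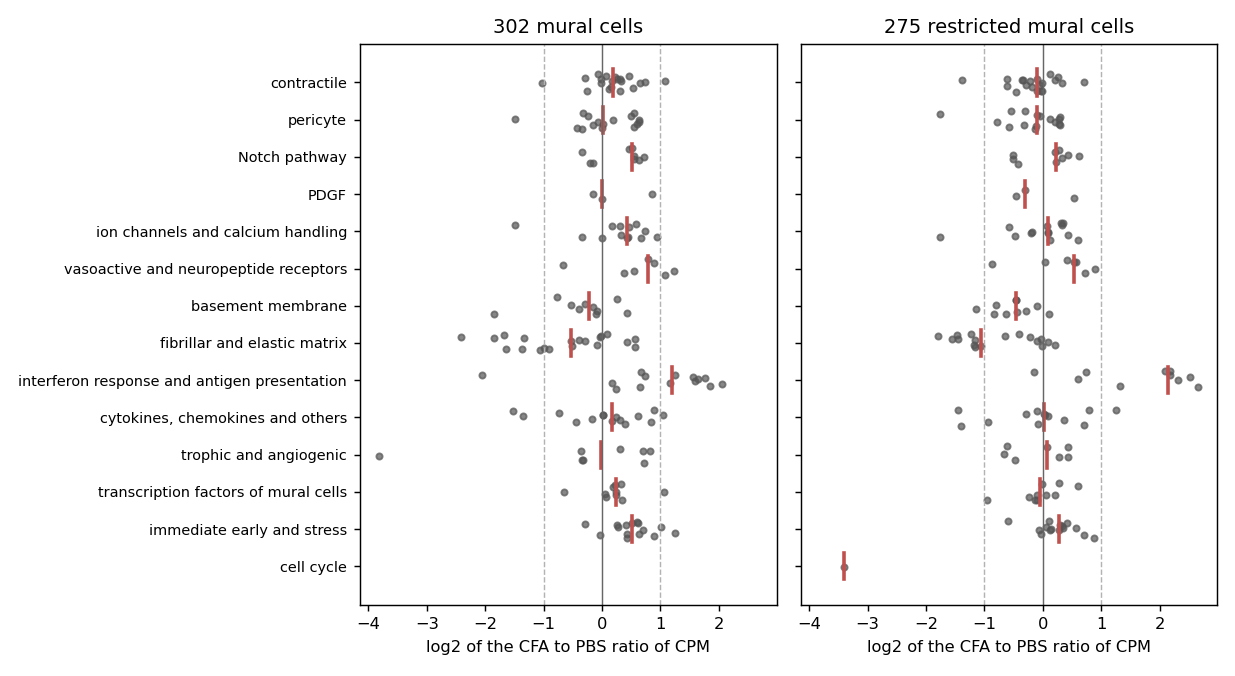
Each grey point is 1 measured gene of a list, placed by the log2 of its CFA to PBS ratio of CPM in the 302 mural cells (left) and in the 275 restricted mural cells (right), with the median of each list as a red bar and dashed lines at 2-fold. The interferon response and antigen presentation list lies furthest to the right, with medians of 2.31-fold and 4.40-fold, and the fibrillar and elastic matrix list lies to the left, with medians of 0.696 and 0.481.

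Interferon response and antigen presentation genes were higher in the CFA library. Cells answer interferons through kinases at their receptors, which lead to the expression of GTPases against intracellular pathogens, the proteasome and transport proteins that cut and load peptides, and the MHC class I molecules that display them. Of 14 measured genes of this list, 8 were at least 2-fold higher in CFA, 13 were above 1, and the median ratio was 2.31, against a median of 1.05 and 2.58% of all measured genes. Of the 8, 3 were under 50 CPM in PBS, *Gbp2* and *Tapbp* among them, and reached the limit for measured genes only through CFA. Of the 9 genes at 50 CPM or more in both libraries, 5 were at least 2-fold higher. In the restricted mural cells, 7 of 10 were at least 2-fold higher, 3 of them only through CFA, with a median of 4.40, against 1.52% of all genes. These counts and medians are a description, since a gene that entered through CFA alone had to be higher there. Summed over all 38 genes of the list, with no such limit, the level was 2510 CPM in PBS and 5574 in CFA, a ratio of 2.22 (2.13 to 2.31). The list was chosen with earlier results of these data known, so this sum is a description too.

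The class I genes carried much of this. *B2m*, the invariant chain of every class I molecule, stood at 195 CPM in PBS and 706 in CFA, a ratio of 3.61 (3.16 to 4.15), and at 139 and 689 CPM in the restricted cells. *H2-K1*, a class I heavy chain, stood at 278 and 819 CPM, a ratio of 2.95 (2.62 to 3.32), and at 119 and 754 CPM in the restricted cells, a ratio of 6.35. *H2-D1*, the other classical heavy chain, stood at 177 and 532 CPM, a ratio of 3.01 (2.60 to 3.50), and at a ratio of 5.77 (4.58 to 7.35) in the restricted cells. *Tapbp*, which helps load peptides, stood at 35.6 and 79.4 CPM. The highest PBS cell held 20.2% of the *B2m*, 27.0% of the *H2-K1* and 36.1% of the *H2-D1* UMIs of that library. Class I genes are close relatives, and reads can be split between them, so each single class I ratio is uncertain.

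The GTPase genes *Iigp1* and *Gbp2* and the modifier gene *Isg15* were also at least 2-fold higher in CFA. *Iigp1*, an interferon-inducible GTPase, stood at 123 CPM in PBS and 509 in CFA, a ratio of 4.13 (3.49 to 4.92). *Gbp2*, a guanylate-binding protein, stood at 29.7 and 101 CPM, a ratio of 3.40 (2.39 to 4.95). *Isg15*, a ubiquitin-like modifier, stood at 63.1 and 150 CPM, a ratio of 2.38 (1.85 to 3.09), but at 0.885 when each cell was thinned to 1000 UMIs. In the restricted cells these ratios were 4.53 for *Iigp1*, 3.96 for *Gbp2* and 4.28 for *Isg15*. *Psmb9*, a subunit of the immunoproteasome, was under the limit for measured genes and had 7 UMIs in PBS and 56 in CFA, and in the restricted cells it had 0 and 47, at least 10.9-fold higher in CFA against a floor of 3 counts. *Irf1*, a transcription factor of the same response, stood at 484 and 546 CPM, a ratio of 1.13, and at 0.896 in the restricted cells. *Cxcl10*, a chemokine gene, was the 1 measured gene of the list with a ratio below 1. It was lower in CFA, at 98.8 and 23.6 CPM, with 46.6% of its PBS UMIs in 1 cell.

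The list was not carried by a few cells alone. The share of a cell's UMIs in its 38 genes had a lowest value of 0% and a highest of 4.07% in PBS, with a median of 0.148%, and of 0% and 3.41% in CFA, with a median of 0.298%, so the ranges overlap and the middle is higher in CFA. As a mean over cells of each cell's CPM, which gives each cell equal weight, the ratio was 2.73 for *B2m*, 3.36 for *H2-K1*, 3.25 for *H2-D1*, 2.55 for *Iigp1* and 1.78 for the whole list. After thinning to 1000 UMIs, *H2-K1* had a UMI in 12.1% of PBS (7.09% to 18.9%) and 39.6% of CFA mural cells (32.2% to 47.4%), against 53.8% and 75.9% as counted. *B2m* went from 15.9% (10.1% to 23.3%) to 26.6% (20.1% to 34.0%) after thinning, and from 59.1% to 81.2% as counted. Endothelial cells chosen by *Pecam1* and *Cdh5*, at median depths of 5386 and 4195 UMIs, had *H2-K1* in 55.6% and 74.8% after thinning. These cells therefore give no background of cells without the gene, and no other group was thinned for this.

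Markers of myeloid cells differed between the libraries in the same direction. *Lyz2*, the lysozyme gene of macrophages and neutrophils, had a UMI in 4.55% of the PBS and 78.2% of the CFA mural cells, at 4.46 and 201 CPM, while the other kept cells stood at 326 and 9522 CPM. The 6 genes of the myeloid and general immune list summed to 9.65 CPM in PBS and 265 in CFA, with *Ptprc* at 0 by the rule, and the 6 of the neutrophil list to 97.3 and 217. Among the mural cells with no *Lyz2* UMI, 126 in PBS and 37 in CFA, the interferon list stood at 2504 and 6362 CPM, a ratio of 2.54 (2.40 to 2.69). In the same cells *B2m* had a ratio of 4.06 (3.40 to 4.86), *H2-K1* of 3.07 (2.61 to 3.61) and *Iigp1* of 7.67 (6.33 to 9.31).

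The list was higher in CFA in each contractile range, though the ranges are not matched for contractile share between the libraries. Within the low, middle and high ranges of the 302 cells, the ratio of the whole list was 2.40, 1.85 and 3.72. The low range holds the PBS cells of 129612 and 82000 UMIs, out of 539927 PBS UMIs. The ratio of the list per range was not computed in the restricted cells. *B2m* was 2.94-fold, 3.60-fold and 7.95-fold higher in the CFA cells of these ranges. *H2-K1* was 1.89-fold, 4.12-fold and 12.9-fold higher. Within PBS these genes leaned to the low range, with *B2m* in the restricted cells at 216, 167 and 75.3 CPM in the low, middle and high ranges and *Ifitm3*, an antiviral membrane protein, at 923, 564 and 221. In CFA *B2m* stood at 968, 492 and 701 CPM.

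Genes of the interferon list were also past 2-fold in the other stromal cells of the same libraries, but not every gene had the same direction. Other numbers of the list's genes were measured in each group, 14 in mural, 37 in endothelial and 23 in fibroblast cells. In 1895 endothelial comparison cells (781 PBS, 1114 CFA), 113 of 3976 measured genes (2.84%) were 2-fold higher in CFA and 1.81% 2-fold lower, and 21 of 37 interferon list genes were, with a median of 2.35. In 851 fibroblast comparison cells (487 PBS, 364 CFA), 146 of 3731 (3.91%) were 2-fold higher and 1.39% 2-fold lower, and 20 of 23 interferon list genes were, with a median of 7.33. *Iigp1* was 4.13-fold higher in mural, 1.37-fold in endothelial and 15.5-fold in fibroblast comparison cells. *B2m* was 3.61-fold, 2.35-fold and 7.46-fold higher. *Isg15* was 2.38-fold higher in mural cells, 7.50-fold in fibroblasts and at a ratio of 0.754 in endothelial cells. These differences between cell groups were not tested.

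**Figure D4:**
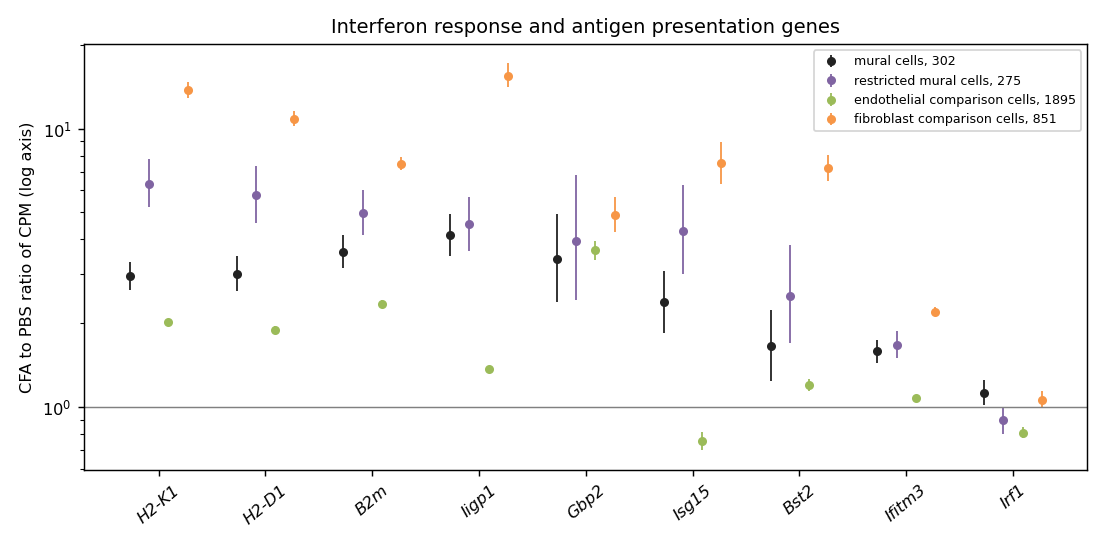
CFA to PBS ratio of CPM (log axis) of 9 interferon response and antigen presentation genes in the 302 mural cells, the 275 restricted mural cells and the endothelial and fibroblast comparison cells, with bars for the 95% counting interval and a line at 1. For *H2-K1*, *H2-D1*, *B2m* and *Iigp1* the mural ratios lie between the endothelial and the fibroblast ratios, and *Irf1* lies near 1 in every group.

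Promoters of 3 of these genes are shown because they hold the interferon-stimulated response element (ISRE), a site of IRF factors. The windows are the 250 bases before the RefSeq start in GRCm38.p6, printed 5′ to 3′ on the strand of the gene, at chr2:122147437-122147686 for *B2m* (plus strand), chr3:142620413-142620662 for *Gbp2* (plus strand) and chr4:156200819-156201068 for *Isg15* (minus strand). Capitals mark matches to GAAANNGAAA or to its reverse complement TTTCNNTTTC.

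B2m: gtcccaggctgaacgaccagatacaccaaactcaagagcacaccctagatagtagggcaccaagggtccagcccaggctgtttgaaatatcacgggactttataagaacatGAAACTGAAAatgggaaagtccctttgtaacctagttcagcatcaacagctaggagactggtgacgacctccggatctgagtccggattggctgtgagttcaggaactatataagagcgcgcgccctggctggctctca

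Gbp2: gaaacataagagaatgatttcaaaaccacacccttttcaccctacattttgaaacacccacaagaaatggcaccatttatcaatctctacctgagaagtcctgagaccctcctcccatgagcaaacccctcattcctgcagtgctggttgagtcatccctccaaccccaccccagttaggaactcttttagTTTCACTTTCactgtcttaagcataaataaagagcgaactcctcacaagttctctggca

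Isg15: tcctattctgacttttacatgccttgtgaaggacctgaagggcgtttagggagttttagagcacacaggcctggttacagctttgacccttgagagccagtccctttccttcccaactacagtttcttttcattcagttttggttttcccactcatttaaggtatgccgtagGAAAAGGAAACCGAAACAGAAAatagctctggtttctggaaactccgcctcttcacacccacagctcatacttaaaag

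The match begins 139 bases before the start of *B2m* and 59 before that of *Gbp2*, and *Isg15* holds 3 matches, which overlap, from 78 bases before its start. Of 31 genes of the list with a window, 17 (54.8%) held the ISRE letters, against 936 of 27025 RefSeq genes (3.46%), and 8 (25.8%) held the letters of the gamma-activated site TTCNNNGAA, against 8.13%. The windows of *H2-K1* and *H2-D1* held no match to either. Of the 6 measured genes with a window that were 2-fold higher in mural cells, 3 held the ISRE, and of the 6 that were not, 3 did.

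The contractile list stood on both sides of 1. Its 20 genes summed to 40899.8 CPM in PBS and 44093 in CFA, a ratio of 1.08 (1.07 to 1.09), with 1 gene (*Sncg*) 2-fold higher and 1 (*Actg2*) 2-fold lower, but in the restricted cells they summed to 55418 and 47383, a ratio of 0.855 (0.845 to 0.865). *Acta2* stood at 10001.5 CPM in PBS and 9856 in CFA, and at 13691 and 10696 in the restricted cells. *Myh11* stood at 3276 and 4075 CPM, and at 4513 and 4411 in the restricted cells. *Actg2*, the gamma smooth muscle actin of visceral muscle and arteries, stood at 231 and 113 CPM and was also lower in the restricted cells, at 327 and 125. *Sncg*, gamma synuclein, stood at 330 and 699 CPM, and at 455 and 740 in the restricted cells. *Myocd* stood at 177 and 370 CPM, a ratio of 2.10 (1.80 to 2.45), and at 1.52 in the restricted cells.

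Among pericyte genes *Kcnj8* was 2-fold lower in CFA. It stood at 143 CPM in PBS and 50.6 in CFA, a ratio of 0.355 (0.269 to 0.464), and at 0.294 in the restricted cells, with a UMI in 41 PBS and 26 CFA cells. After thinning to 1000 UMIs, *Kcnj8* had a UMI in 15.2% of the PBS (9.51% to 22.4%) and 8.28% of the CFA cells (4.60% to 13.5%), against 0.129% and 0.276% of the endothelial cells, and these mural intervals overlap. The low contractile range is not matched for contractile share between the libraries. Within it *Kcnj8* stood at 703 and 234 CPM in the restricted cells, and its ratio among all 302 cells was 0.697. Its partner *Abcc9* stood at 283 and 223 CPM over all mural cells, a ratio of 0.787, and *Rgs5* at 1556 and 2353, a ratio of 1.51. The other measured genes of the list, 15 of 16, were within 2-fold, and the list summed to 5729 and 7014 CPM. Of all genes, 5.35% were 2-fold lower.

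Notch and PDGF genes stayed within 2-fold. *Notch3* stood at 650 CPM in PBS and 953 in CFA, and at 820 and 994 in the restricted cells. Its ligand *Jag1* stood at 133 and 183 CPM, and the Notch targets *Hes1* and *Heyl* at 287 and 448 and at 100 and 90.6. *Pdgfrb* stood at 405 and 406 CPM, and *Pdgfa*, a PDGF ligand, at 123 and 223, a ratio of 1.81 (1.495 to 2.19). None of the 9 Notch and 3 PDGF genes measured was past 2-fold in either set of cells.

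Of 7 measured receptor genes, 2 (*Ednrb* and *Calcrl*) were 2-fold higher in CFA in the 302 cells, where 2.58% of all genes were, and none in the restricted cells. *Calcrl* reached the limit for measured genes only through CFA. A ratio above 1 was found for 6 of the 7 in both sets of cells, with medians of 1.72 and 1.45, and for 2036 of 3642 genes in the 302 and 1830 of 3487 in the restricted cells. *Ednrb* stood at 111 CPM in PBS and 260 in CFA, a ratio of 2.35 (1.94 to 2.86), and at 1.85 (1.53 to 2.26) in the restricted cells. *Ednra* stood at 177 and 305 CPM, a ratio of 1.72 (1.47 to 2.02). *Calcrl*, the receptor that *Ramp1* turns to CGRP, stood at 37.1 and 78.8 CPM, a ratio of 2.12, and at 1.65 in the restricted cells, but at 0.955 without the limits on immune, endothelial and fibroblast genes. *Ramp1* itself stood at 192 and 121 CPM, a ratio of 0.631 (0.519 to 0.765), and at 0.550 (0.449 to 0.673) in the restricted cells. *Npy1r* stood at 101 and 187 CPM, a ratio of 1.85 (1.505 to 2.29), and at 1.49 in the restricted cells.

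Of 13 measured channel and calcium genes, *Kcnj8* was the 1 past 2-fold, and it was lower in CFA, as were 5.35% of all genes. *Kcna5* stood at 80.9 and 155 CPM, a ratio of 1.91 (1.52 to 2.42), and *Kcnab1*, the subunit that can pair with it, at 1098 and 2132, a ratio of 1.94 (1.82 to 2.07). In the restricted cells both were at 1.52. *Atp2a2*, the calcium pump of the reticulum, stood at 630 and 942 CPM, and *Cacna1c* at 1395 and 1566, where the restricted cells had 1883 and 1657. The median of the list was 1.34 in the 302 and 1.06 in the restricted cells.

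**Figure D5:**
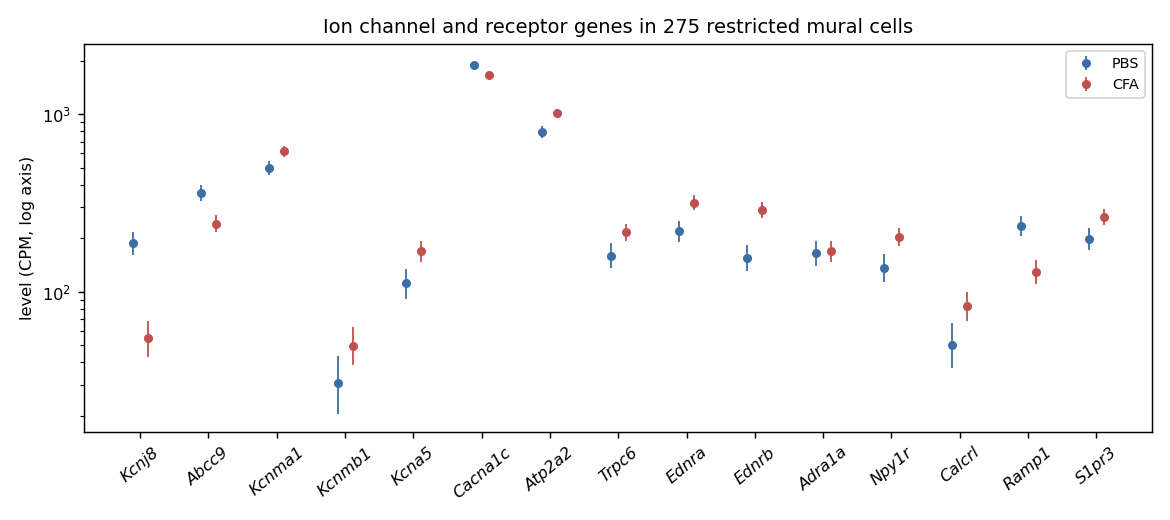
Levels (CPM, log axis) of 15 ion channel and receptor genes in the restricted mural cells of PBS (blue) and CFA (red), with bars for the 95% counting interval. The bars of *Kcnj8*, *Abcc9* and *Ramp1* lie lower in CFA and those of *Kcna5*, *Ednra*, *Ednrb* and *Npy1r* higher without overlap, and those of *Adra1a* overlap.

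The fibrillar and elastic matrix list summed to a lower level in CFA, though not within the low contractile range of the 302 cells. Of 20 measured fibrillar and elastic matrix genes, 16 had a ratio below 1 and 7 were 2-fold lower, against 5.35% of all measured genes, and in the restricted cells 15 of 17 were below 1 and 9 were 2-fold lower, against 2.15%. Of all measured genes, 1606 of 3642 in the 302 cells and 1657 of 3487 in the restricted cells were below 1. In each set 1 of the 2-fold lower genes of the list reached the limit for measured genes only through PBS. The list was chosen with earlier results of these data known, so these counts are a description. The list summed to 10183 CPM in PBS and 6726 in CFA, and to 8164 and 5292 in the restricted cells, a ratio of 0.648 (0.628 to 0.669). Among the 302 cells the ratio of the sums was 1.096 in the low, 0.347 in the middle and 0.798 in the high range. That low range holds the PBS cells of 129612 and 82000 UMIs, out of 539927 PBS UMIs. The ratio of the sums per range was not computed in the restricted cells. Each cell's share of UMIs in these genes had a median of 0.610% in PBS (lowest 0.0131%, highest 3.63%) and 0.318% in CFA (0% to 6.92%), with overlapping ranges.

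*Eln* stood at 757 CPM in PBS and 292 in CFA, a ratio of 0.386 (0.344 to 0.432), and at 1060 and 307 in the restricted cells. The contractile ranges are not matched for contractile share between the libraries. Within the middle and high ranges of the restricted cells, *Eln* stood at 1248 and 1389.6 CPM in PBS and at 127 and 587 in CFA. It was also lower in CFA within their low range. Within the low range of all 302 cells, which holds the PBS cells of 129612 and 82000 UMIs, its ratio was 1.38. Its UMIs were spread over 65 PBS and 60 CFA cells, with 6.18% of the PBS UMIs in the highest cell. *Col6a1* and *Col6a2*, which code for chains of the beaded collagen VI around cells, stood at 386 and 108 CPM and at 370 and 118. *Col3a1*, the collagen of distensible tissue, stood at 1046 and 735 CPM, a ratio of 0.703, and at 1084 and 484 in the restricted cells, a ratio of 0.447. *Fn1* was at a ratio of 0.313, but 76.1% of its PBS UMIs came from 1 cell, and in the restricted cells it stood at 183 and 179 CPM. *Thbs1*, thrombospondin 1, stood on the other side, at 317 and 471 CPM, and at 1.16 in the restricted cells.

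The basement membrane list summed to a ratio of 0.455 in the 302 cells, where the fibrillar list was at 0.660, and to 0.653 in the restricted cells. Of 10 measured genes, 8 were below 1 in the 302 and 9 in the restricted cells, where 1606 of 3642 and 1657 of 3487 genes were. Their medians were 0.862 and 0.728, and 1 was 2-fold lower in each set, against 5.35% and 2.15% of all genes. *Col4a1* stood at 835 and 783 CPM, and at 1070 and 780 in the restricted cells. *Nid1*, which links laminin to collagen IV, stood at 127 and 74.8 CPM, and at 0.455 in the restricted cells. *Sparc*, which binds collagen, stood at 7111 and 1975 CPM, but 55.1% of its PBS UMIs came from 1 cell, and in the restricted cells it stood at 3161 and 1766, a ratio of 0.559 (0.529 to 0.590).

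Cytokine and adhesion genes did not move as a group. Of 16 measured, 2 were 2-fold higher (*Saa3* and *Cebpd*) and 2 were 2-fold lower (*Cxcl12* and *Vcam1*), against 2.58% and 5.35% of all genes. The median was 1.16. *Saa3*, an acute phase protein, had 0 UMIs in PBS and 476 in CFA, at least 140-fold higher against a floor of 3 counts over the PBS cells, but 458 of these were in 1 cell, and the restricted cells held 16, at least 3.72-fold higher. *Cebpd*, an inflammatory transcription factor, stood at 216 and 443 CPM, and at 1.63 in the restricted cells. *Cxcl12*, the ligand of CXCR4, stood at 731 and 255 CPM, but at 162 and 133 in the restricted cells. *Vcam1* was at 112 and 44.0 CPM, and at 11.6 and 14.6 in the restricted cells, the other direction. *Il6* stood at 140 and 84.0 CPM, and at 193 and 70.2 in the restricted cells, a ratio of 0.363 (0.281 to 0.468).

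Trophic factors, mural transcription factors and immediate early genes were mostly within 2-fold. *Tgfb2*, a ligand of the TGF-beta family, stood at 126 CPM in PBS and 208 in CFA. *Igf1* stood at 195 and 13.8 CPM, a ratio of 0.0706, but at 7.35 and 5.85 in the restricted cells, with UMIs in 14 PBS and 7 CFA cells. Of 10 mural transcription factors, *Myocd* was the 1 past 2-fold, and it was higher in CFA, as were 2.58% of all genes. *Prrx1*, a factor of mesenchymal cells, stood at 440 and 279 CPM. Of 15 immediate early and stress genes, 13 had a ratio above 1, where 2036 of 3642 genes did. *Zfp36* and *Nr4a1*, 2 of the 15, were 2-fold higher, against 2.58% of all genes. The median of the 15 was 1.42, and 1.21 in the restricted cells. These genes also answer to tissue digestion, and its part in the result was not tested. *Zfp36*, which destabilizes cytokine mRNAs, stood at 261 and 616 CPM, and *Nr4a1* at 329 and 666, with ratios of 1.83 and 1.63 in the restricted cells.

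The highest ratios also held genes outside the lists. *Il1rapl1*, a synaptic adhesion protein of the interleukin-1 receptor family, stood at 12.6 CPM in PBS and 116 in CFA, a ratio of 9.15 (5.56 to 16.1), with UMIs in 5 PBS and 20 CFA cells. *Tmeff2*, a transmembrane protein with follistatin domains, stood at 21.5 and 123 CPM, with UMIs in 13 and 48 cells. *Grp*, the gene of gastrin-releasing peptide, stood at 23.8 and 115 CPM, a ratio of 4.84 (3.30 to 7.29), with UMIs in 9 and 31 cells. Each was under 50 CPM in PBS and reached the limit for measured genes only through CFA, so it had to be higher there. In the restricted cells, which are part of the same cells, the ratios were 8.17 for *Il1rapl1*, 4.08 for *Tmeff2* and 3.81 for *Grp*. These genes were picked for their ratios, so their values are a description. After thinning to 1000 UMIs, *Grp* had a UMI in 2.27% of PBS (0.471% to 6.50%) and 7.69% of CFA mural cells (4.16% to 12.8%). It had none in 773 and 1087 endothelial cells, which allows shares with a UMI at this depth of up to 0.388% and 0.276%.

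*Adgrg6*, an adhesion G-protein-coupled receptor, was more widely detected. It stood at 69.8 and 251 CPM, a ratio of 3.59 (2.86 to 4.55), with UMIs in 31 PBS and 80 CFA cells, and at 3.18 in the restricted cells. After thinning, *Adgrg6* had a UMI in 3.79% of PBS (1.24% to 8.62%) and 17.2% of CFA mural cells (11.8% to 23.7%), against 1.16% and 0.644% of endothelial cells. The gene was picked for its ratio in these same cells of 1 library per condition, so these shares are a description. *Zbtb16*, a zinc finger factor induced by glucocorticoids, stood at 123 and 391 CPM, a ratio of 3.17 (2.66 to 3.79), with UMIs in 66 and 145 cells, and it was also 4.03-fold higher in endothelial and 3.20-fold in fibroblast comparison cells. *Asb4* and *Tmtc2* had ratios of 4.52 and 3.18, and 3.04 and 5.11 in the restricted cells. *Cxcl5*, *Apod* and *Unc5c* owed 89.6%, 90.4% and 63.9% of their CFA UMIs to 1 cell each.

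The lowest ratios over the 302 cells came from single PBS cells. *Col2a1* stood at 3965 CPM in PBS and 13.8 in CFA, with 89.9% of its PBS UMIs in 1 cell, and *Krt14*, *Lgals7* and *Apoc1* had over 99% of theirs in 1 cell (99.6%, 99.5% and 99.7%). In the restricted cells the lowest was *Pappa2*, a protease that frees insulin-like growth factors from their binding proteins, at 201 CPM in PBS and 11.7 in CFA, a ratio of 0.0584 (0.0327 to 0.0972), with UMIs in 16 PBS and 5 CFA mural cells and 37.9% of the PBS UMIs in 1 of them. *Lmcd1*, a transcriptional cofactor, was more even, at 218 and 53.4 CPM, with UMIs in 43 and 29 mural cells. *Epha3*, an ephrin receptor, stood at 106 and 29.3 CPM, and *Col6a1* and *Eln* were also among these 15. *Pappa2* and *Epha3* were under 50 CPM in CFA and reached the limit for measured genes only through PBS. *Mki67*, the marker of dividing cells, had 99 UMIs in PBS, 50 of them in 1 cell, and 12 in CFA.

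Markers of other cells moved beside these results as follows. The erythroid list summed to 903 CPM in PBS and 306 in CFA, and the fibroblast list to 246 and 417, with 39.9% and 39.1% of its UMIs in 1 cell. The endothelial list summed to 61.6 and 84.0 CPM, with *Tie1* at 0 in both libraries and *Kdr* at 0 in PBS, the chondrocyte list to 5027 and 39.4, and the osteoblast and osteocyte list to 2239 and 175. The Schwann list summed to 315 and 86.7 CPM and the tendon list to 218 and 61.1. In the restricted cells the erythroid list summed to 1044 CPM in PBS and 313 in CFA, and the fibroblast list to 46.2 and 222, a ratio of 4.81 (3.50 to 6.76). There the chondrocyte list was at 27.3 and 37.3 CPM, the osteoblast and osteocyte list at 36.8 and 50.5, the Schwann list at 25.2 and 13.9 and the tendon list at 58.8 and 38.8. The part of these cells and of free RNA in the ratios above was not tested.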

How the data were processed

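Single-cell suspensions of the TMJ were sequenced on the 10x Genomics platform, 1 library each for PBS and CFA. The deposited matrices hold UMI counts per gene and barcode for 32285 genes, which the authors made with Cell Ranger 7.0.1 on the mouse mm10 genome (GRCm38), with no normalization. The libraries held 51146169 (PBS, 7671 barcodes) and 53517206 UMIs (CFA, 5709 barcodes). The number of mice behind each library is 3 per the methods, and the matrices do not separate them. The labels and the methods differ in the collagenase named and in the version of the library kit, which is 2 in the labels.

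Members and gene lists were chosen with earlier results of these data known. Cells were kept and chosen by the limits given in the report. No doublet caller was run, and the limits on immune, endothelial and fibroblast genes remove part of the mixed cells. Levels are UMIs per 1000000 (CPM), summed over the chosen cells, which weights deep cells more. A gene was measured at a mean of at least 50 CPM, and a ratio of at least 2 or at most 0.5 counted as past 2-fold, a rule of size and not a test. Ratio intervals are exact conditional binomial, shares exact Clopper-Pearson, levels exact Poisson. A floor of 3 counts per group stands for 0. Cells were thinned to 1000 UMIs where shares of cells with a UMI are compared. Named genes were the 15 highest and 15 lowest ratios, the 30 highest against the other kept cells, and the 14 gene lists; the same choice was repeated in the restricted set, and values of single left-out cells were picked after they were seen. A few genes counted in their lists are not reported here by name. Promoter windows came from RefSeq, and gene positions from GENCODE. Alternatives changed 1 choice at a time, except that the restricted set joins limits on *Myh11* and *Rgs5* and on other cell types, and that the limits on immune, endothelial and fibroblast genes were lifted together. On simulated Poisson counts with no spread between cells or libraries, all of 200 genes changed 4-fold that were measured were recovered (100%). This checks the computation only, and does not cover genes whose UMIs come mostly from single cells. Python 3.11.15, numpy 2.4.6, scipy 1.17.1, pandas 2.3.3 and matplotlib 3.10.9 were used.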

Additional observations from a re-analysis of the deposited data

Results flagged for a closer look

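For 3 genes the CFA to PBS ratio went one way in mural cells and the other way in a comparison cell group. With 1 library per condition the difference was not tested. *Lsamp*, a neuronal adhesion protein, was 3.36-fold higher in CFA mural cells (45.3 and 152 CPM) and at a ratio of 0.275 in fibroblast comparison cells (370 and 102 CPM). *Cxcl10* was at 0.239 in mural cells (98.8 and 23.6 CPM) and 4.76-fold higher in endothelial comparison cells (24.5 and 117 CPM). *Dcn*, the fibroblast proteoglycan decorin, was 2.45-fold higher in mural cells (127 and 311 CPM), where 1 cell held 49.7% of its PBS and 46.9% of its CFA UMIs, 8.29-fold higher in the restricted cells (22.1 and 183 CPM), and at 0.371 in endothelial comparison cells (202 and 74.9 CPM).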

How the results depend on the processing

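No paired analysis was possible because each condition has 1 library. The restricted set, the limit of 30000 UMIs and the cells with no *Lyz2* UMI were chosen after seeing the data. The cause of the changes below was not tested. The share of mural cells (4.95% in PBS, 4.24% in CFA) became 2.94% in PBS with no hemoglobin limit, 8.25% and 6.18% with no limit on immune, endothelial and fibroblast genes, 1.72% and 2.98% over all barcodes, and 5.16% in CFA at 20% mitochondrial UMIs. The ratio of 0.856 became 1.36 with no hemoglobin limit and 1.73 over all barcodes. The 94 genes 2-fold higher in CFA became 58 with at least 10 UMIs of the 3 genes, 53 in the restricted set, 55 as a mean over cells, 261 after thinning, 207 at 20 CPM, 50 at 100 CPM, 574 and 155 in the low and middle ranges, 54 at up to 30000 UMIs and 208 without *Lyz2*. The 195 lower genes became 117, 75 and 94 in the first 3 of these, 404 at 20 CPM, 96 at 100 CPM, 551 in the low and 67 in the high range, and 85 at up to 30000 UMIs. The interferon sum of 2.22 was above 1 in all 16 alternatives, at 2.07 with 20% mitochondrial UMIs, 1.97 with no hemoglobin limit, 2.42 with at least 10 UMIs, 1.43 with no limits on other cell types, 2.66 restricted, 2.12 with the median ratio set to 1, 1.78 as a mean over cells, 1.70 thinned, 2.40, 1.85 and 3.72 in the low, middle and high ranges, 2.10 at up to 30000 UMIs and 2.54 without *Lyz2*. Genes higher in the low contractile range numbered 379, and 581 after thinning. The *B2m* share difference was 10.7 points at 1000 and 24.6 at 2000 UMIs. The basement membrane sum stayed below 1 in 16 of 16 alternatives (0.394 to 0.711), and the fibrillar sum in 15 (0.347 to 1.096), and the contractile sum of 1.08 fell below 1 in 7 (0.789 to 1.85). Directions reversed for *Unc5c* (0.822 with at least 10 UMIs), *Col2a1* (2.32 restricted, 1.86 high range, 2.49 at up to 30000 UMIs), *Comp* (1.16 and 1.19), *Snorc* (4.88 restricted, 4.99 at up to 30000 UMIs), *Isg15* (0.885 thinned), *Mki67* (1.09 with no limits, 3.72 high range), *Calcrl* (0.955 with no limits), *Col1a2* (1.04 at up to 30000 UMIs), *Fn1* (1.0007 thinned, 1.20 at up to 30000 UMIs), *Cxcl10* (4.46 high range), *Vcam1* (1.27 restricted, 1.21 middle range) and *Igf1* (3.44 middle range). In the low range of the 302 cells, *Macrod2* (1.33), *Eln* (1.38), *Mfap5* (8.47), *Rian* (1.19), *Gstm1* (1.27), *Actg2* (6.87) and *Col5a1* (1.01) reversed. Each of these values for single genes needed more than 3 counts in only 1 library, so some rest on few UMIs. In the restricted set the 4 genes of the chondrocyte list, *Col2a1* and *Comp* among them, held 26 UMIs in PBS and 51 in CFA. Among single genes and lists, 696 values moved by less than their counting interval, 387 by more and 26 reversed.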

Other observations

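UMIs of several chemokine genes and *Il6* sat in a minority of mural cells. *Ccl2*, *Ccl7*, *Ccl11*, *Ccl19*, *Cxcl1* and *Il6* together had at least 5 UMIs in 31 of the PBS (23.5%) and 21 of the CFA mural cells (12.4%), and these cells held 93.5% and 85.1% of the UMIs of the 6 genes. No UMI of them was found in 59.8% and 59.4% of the cells. The chemokine gene *Cxcl12*, not among these 6, had a UMI in 58.3% of the PBS mural cells. Cell cycle genes summed to 231 CPM in PBS and 79.4 in CFA, with 50.5% of the PBS *Mki67* UMIs in 1 cell.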
